A study of Mus musculus with 18 samples.

Results

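The genes described here are the 9 genes of mouse chromosome 7 that lie within 100 kb of Itgax and were named by symbol for this account: Itgax, Itgam, Itgad, Cox6a2, Tgfb1i1, Armc5, 9130023H24Rik, 4931431B13Rik and Gm49368. They are 9 of 32789 genes in the deposited table. Itgax encodes CD11c, the gene after which the CD11c-Cre driver of the knockouts is named. The 9 were chosen by position, with their knockout effects in these libraries already known, so the knockout effects are given as a description and not as tests. "Called" below means an adjusted p under 0.05 in the fit over all genes, and no such p is printed for a contrast with a knockout in it.

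RNA was sequenced from alveolar macrophages, which live in the air sacs, recovered by lavage of mouse lungs and selected on magnetic columns with beads against CD11c. All 6 groups carried conditional (flox-flox) alleles of Vhl. In the Vhl-Hif1 cross these were joined by conditional Hif1a, in the Vhl-Hif2 cross by conditional Hif2a (gene symbol Epas1), and in the triple cross by both. Each cross held a knockout group labelled CD11c-Cre and a control group labelled by its flox-flox alleles alone, with no word on whether Cre was absent, and each group held 3 libraries, 18 in all. The sources used here do not give the ages of the mice, nor whether the 3 libraries of a group came from separate animals, so the errors measure the spread between libraries, which may be technical. In every cross CD11c-Cre and the deleted alleles go together by label, so an effect of the driver and an effect of the deletion cannot be told apart. Nor can transcripts of the Itgax neighbourhood on chromosome 7 be told apart, in counts per gene, from transcripts of any added copy of its sequence in a driver construct, and the construct is not given in the sources used here.

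Itgax, Itgam and Itgad encode CD11c, CD11b and CD11d, alpha chains of the leukocyte integrins. Each pairs with the common beta-2 chain CD18, encoded by Itgb2, and the pairs bind complement fragments, fibrinogen and cell adhesion molecules of the ICAM family. Alveolar macrophages are known for high CD11c and low CD11b on their surface, the reverse of most other macrophages and of monocytes. The VHL protein tags HIF-1 and HIF-2, the hypoxia-inducible factors, for degradation through their alpha chains, so that cells without Vhl keep whichever alpha chain they can still make.

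The 9 genes lie in a row (GENCODE M21 on GRCm38, chromosome 7). Itgam (ENSMUSG00000030786) spans 128062640 to 128118491 on the plus strand, Itgax (ENSMUSG00000030789) 128129547 to 128150657 on the plus strand, and Itgad (ENSMUSG00000070369) 128154376 to 128223816 on the plus strand. Gm49368 (ENSMUSG00000108596, 128062683 to 128128160, plus strand) starts within Itgam, shares 3450 bases of exon with it, which is 71.8% of its own exon length and 68.7% of that of Itgam, and ends just before Itgax. The next 2 members sit inside the body of Itgad on the minus strand: 4931431B13Rik (ENSMUSG00000108354, 128192050 to 128203328), a non-coding transcript of which 27.0% of the exon length overlaps exons of Itgad, and Cox6a2 (ENSMUSG00000030785, 128205435 to 128206387), of which 10.3% does. Beyond Itgad lie 9130023H24Rik (ENSMUSG00000062944, 128234458 to 128238031, minus strand) and Armc5 (ENSMUSG00000042178, 128237342 to 128245100, plus strand), which share 690 bases of exon on opposite strands, and then Tgfb1i1 (ENSMUSG00000030782, 128246812 to 128255699, plus strand), 96.2 kb from Itgax. The library kit keeps strand, but the strand setting of the counting is not given in the sources used here, so reads of the overlapping stretches cannot be assigned with certainty. The annotation lists 15 genes within 100 kb. Of the 6 that are not among the 9, 2 are in the table, Gm39091 and Gm44850, both antisense within Itgad, and 4 (Gm9299, Gm22809, Gm45700 and Gm17831) were not analysed here. Just outside the 100 kb limit lie Slc5a2, at 115 kb, and Trim72, at 118.5 kb, both below the filter on low counts, while Tgfb1i1 is the member nearest to the limit.

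The promoters shown are those of the 2 members that the RefSeq table holds (GRCm38.p6, 250 bases before to 50 after the start site). The other 7 had no entry. Capitals mark matches, on either strand, to a HIF core (ACGTG or GCGTG), an AP-1 site (TGAGTCA or TGACTCA), a RUNX site (TGTGGT or TGCGGT) or a PU.1 site (GAGGAA).
Itgax promoter, chr7:128129300-128129599, plus strand: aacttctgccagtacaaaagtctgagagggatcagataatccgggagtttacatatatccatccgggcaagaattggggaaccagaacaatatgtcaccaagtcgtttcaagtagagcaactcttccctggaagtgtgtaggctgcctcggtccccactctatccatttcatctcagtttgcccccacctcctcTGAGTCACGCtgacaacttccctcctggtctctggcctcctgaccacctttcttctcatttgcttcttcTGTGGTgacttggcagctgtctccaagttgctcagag
Itgam promoter, chr7:128062390-128062689, plus strand: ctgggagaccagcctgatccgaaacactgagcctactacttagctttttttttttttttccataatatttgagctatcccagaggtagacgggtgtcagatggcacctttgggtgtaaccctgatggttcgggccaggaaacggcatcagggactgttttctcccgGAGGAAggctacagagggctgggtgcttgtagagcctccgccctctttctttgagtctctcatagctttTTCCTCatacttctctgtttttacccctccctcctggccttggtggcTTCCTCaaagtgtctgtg
The Itgax window held 1 AP-1 match starting 56 bases before the start site, which overlaps 1 HIF core match starting 51 bases before it, and 1 RUNX match starting 13 bases after it. The Itgam window held 3 PU.1 matches, which start 84 and 15 bases before and 32 bases after its start site, and no match to the other 3. Of 32851 mouse promoters of the same length, 43.8% held a HIF core, 28.3% the PU.1 letters, 22.4% the RUNX letters and 5.2% the AP-1 letters. A match of letters is a description of the sequence and not evidence of a bound factor.

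The libraries held 19230000 to 34015000 counts, so that 1 CPM, the unit of the counts scaled by library size, stood for 19.2 to 34 counts. Vhl fell in the knockouts of all 3 crosses (log2 fold change -2.55 ± 0.16, -3.05 ± 0.16 and -2.56 ± 0.16, called in each). In the libraries labelled Vhl-Hif2 knockout, Epas1, the gene they should lack, was called higher (0.97 ± 0.19) and Hif1a was called lower (-1.71 ± 0.18). Neither was called in the other 2 crosses, where Hif1a gave -0.24 ± 0.18 and 0.19 ± 0.18 and Epas1 0.46 ± 0.19 and -0.24 ± 0.19 in the Vhl-Hif1 and triple crosses. Counts per gene include exons outside a deleted part, so they do not check the Hif1a and Epas1 deletions, and the knockouts are named by their labels throughout. Triple control 2 stood apart from its group: its counts differed from those of the other 2 triple controls by a chi-square per gene of 124 and 125, against 8.70 to 43.1 for all other pairs within groups. Triple cross effects of the 9 members, Plcb4 and Tln2 are therefore also given without it. Differences between crosses, control contrasts, list medians and effects on other genes include it, except where stated.

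Itgam, the gene of CD11b, was called higher in all 3 knockouts, Itgax and Itgad each in 2, and the genes beyond Itgad in none. In the Vhl-Hif1 cross 2 of 9 were called, both higher (Itgam and Itgad), where 3.64% of the 12900 tested genes were called in either direction and 2.22% higher. In the Vhl-Hif2 cross 6 of 9 were called, all higher (Itgax, Itgam, Itgad, 4931431B13Rik, Cox6a2 and Gm49368), where 14.7% of all tested genes were called and 7.68% were called higher. In the triple cross 2 of 9 were called, both higher (Itgax and Itgam), where 0.0388% of all tested genes were called and 0.0310% were called higher. The 3 knockout libraries lay above the 3 controls without overlap for 5, 6 and 4 of the 9 in the Vhl-Hif1, Vhl-Hif2 and triple crosses, where 11.8%, 18.5% and 6.97% of all tested genes did so in that direction. Since the 9 were chosen with these effects known, nothing is read from those counts. All 9 passed the filter on low counts, but Gm49368 only through the libraries labelled Vhl-Hif2 knockout, where it is highest, and leaving it out 5 were called in that cross. Cox6a2 would not have passed on the control libraries alone. The Vhl-Hif1 knockout libraries were enough for it, and so were those labelled Vhl-Hif2 knockout. The plot of normalised counts by library shows all 18 values of each gene.

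**Figure D1:**
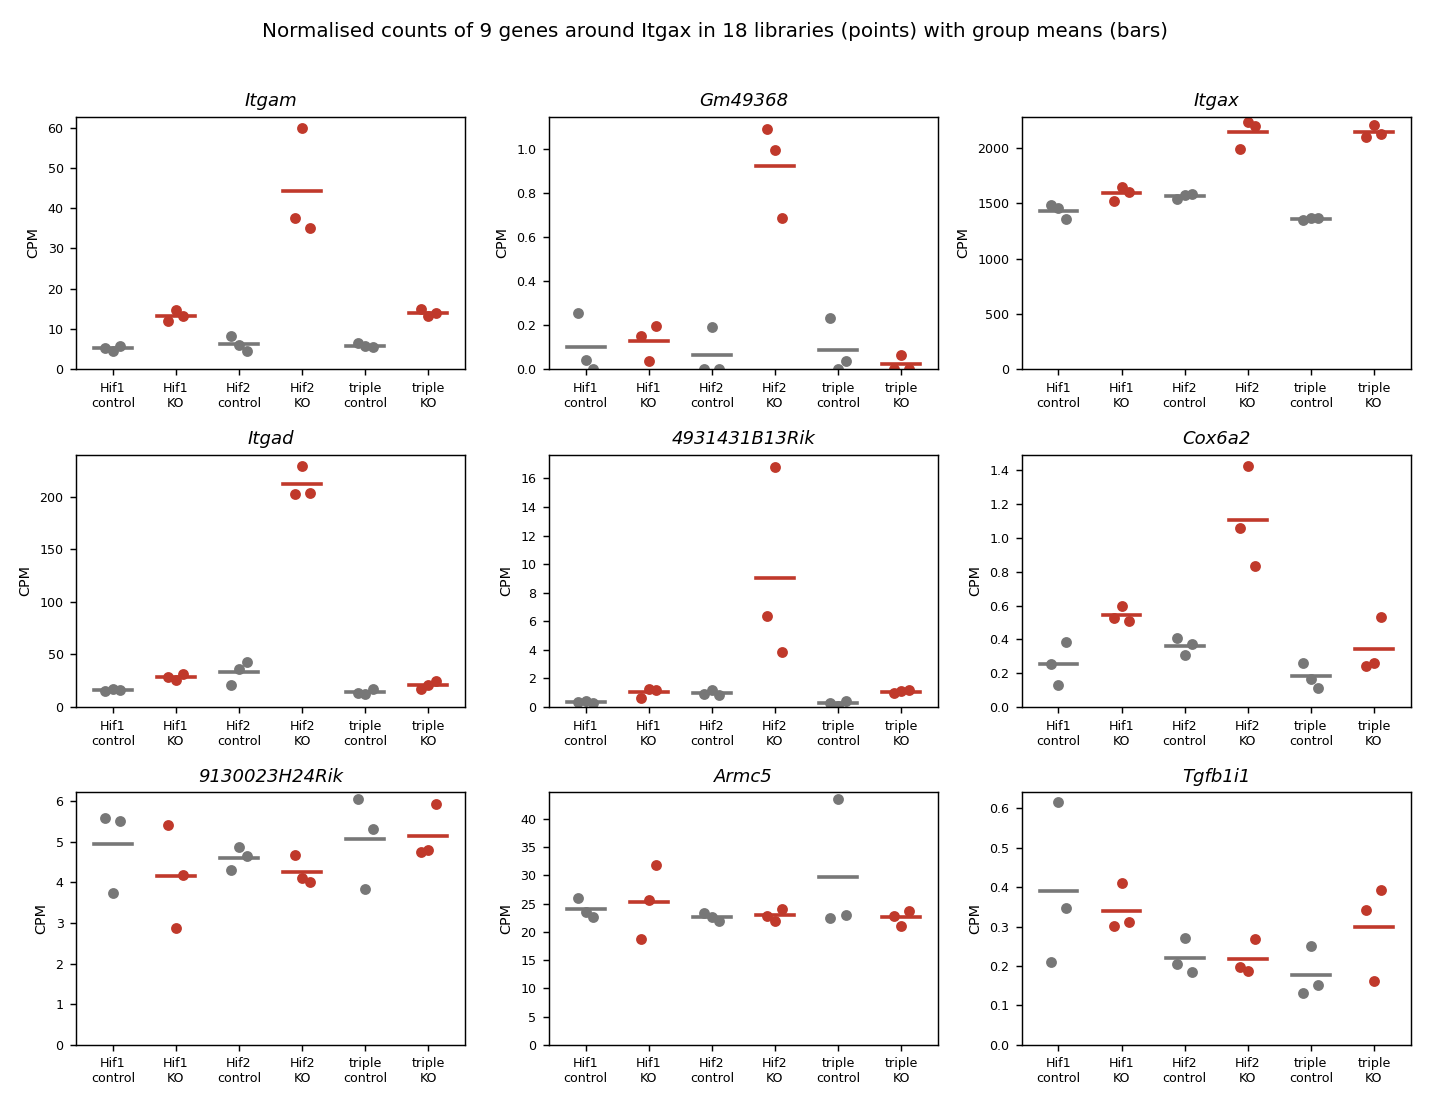
Normalised counts (CPM, linear axes from 0) of the 9 genes in chromosomal order, in 18 libraries. Grey points are control libraries, red points knockout (KO) libraries, and bars are means of 3. For Itgam the red points lie above the grey ones in each cross, for Itgad the libraries labelled Vhl-Hif2 knockout (203 to 229.5 CPM) stand above all others, and for Armc5 1 triple control lies at 43.4 CPM.

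Itgax RNA was abundant in all 18 libraries and highest in the Vhl-Hif2 and triple knockouts. In the Vhl-Hif1 cross it was at 1521, 1650.5 and 1601 CPM in the knockout libraries and 1487, 1457 and 1362 CPM in the controls. The 2 sets did not overlap, but the log2 fold change of 0.15 ± 0.06 (SE, n = 3 against 3) was not called. In the Vhl-Hif2 cross it was at 1989.7, 2240.0 and 2201 CPM in the knockout libraries and 1540.2, 1578 and 1587 CPM in the controls. Every knockout library was above every control, and Itgax rose by 0.45 ± 0.06, a fold of 1.37 (95% interval 1.25 to 1.49). In the triple cross it was at 2101, 2213 and 2133 CPM in the knockout libraries and 1352, 1370.0 and 1369 CPM in the controls. It rose there by 0.66 ± 0.06, a fold of 1.58 (1.44 to 1.72), and by 0.66 without triple control 2. The call in the triple cross ended in a fit to its own 6 libraries alone, with the value at 0.66. Cells were selected by the CD11c protein in all groups, so a selection by the product of this gene was part of every library.

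Itgam RNA was far scarcer than that of Itgax and was higher in the knockout of each cross. The Vhl-Hif1 knockout libraries held 12.1, 14.7 and 13.2 CPM against 5.32, 4.58 and 5.86 CPM in the controls (1.34 ± 0.21, fold 2.53, 95% interval 1.90 to 3.36). Levels in the Vhl-Hif2 cross were 37.5, 59.9 and 35.1 CPM against 8.33, 6.10 and 4.60 CPM (2.80 ± 0.21, fold 6.98, 5.25 to 9.29). Levels in the triple cross were 14.9, 13.1 and 13.9 CPM against 6.45, 5.70 and 5.46 CPM (1.25 ± 0.21, fold 2.38, 1.80 to 3.14). The knockout and control libraries did not overlap in any cross, and Itgam was called in all 3. The highest value of all was that of library 2 of the Vhl-Hif2 knockout, which lay well above the other 2 of its group. The call in the triple cross ended when any 1 of its 6 libraries was left out, triple control 2 included (at 1.23), and in a fit to those 6 libraries alone, while the log2 fold change stayed between 1.20 and 1.32. Only 2 of the 12900 tested genes (0.0155%) were called higher in each of the 3 knockouts, Itgam and Plcb4.

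Of the 3 integrin genes Itgad had the widest range across libraries as a ratio of highest to lowest, and it was highest by far in the libraries labelled Vhl-Hif2 knockout. Vhl-Hif1 knockout libraries held 28.2, 25.6 and 31.5 CPM against 15.5, 16.9 and 15.7 CPM in the controls. It rose by 0.83 ± 0.20, but this call ended without knockout 1 or 3 or without any 1 of the 3 controls, with values of 0.75 to 0.87. Itgad in the Vhl-Hif2 cross was at 203, 229.5 and 203 CPM against 20.6, 36.6 and 42.8 CPM, a rise of 2.67 ± 0.20 or a fold of 6.34 (4.83 to 8.32). The lowest knockout library there was several times higher than the highest control. Itgad in the triple cross was at 17.4, 21.2 and 25.1 CPM against 13.7, 12.6 and 16.9 CPM, with no overlap between the groups and a log2 fold change of 0.56 ± 0.20 that was not called (0.48 without triple control 2).

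Of the other members, 4931431B13Rik, Gm49368 and Cox6a2 overlap the integrin genes, and Cox6a2 is described further below. Like Itgad, the antisense transcript 4931431B13Rik was higher in the libraries labelled Vhl-Hif2 knockout than in their controls (3.20 ± 0.47, called). It was at 6.35, 16.8 and 3.83 CPM in the knockout libraries against 0.920, 1.16 and 0.836 CPM in the controls. Library 2 held by far the most, and leaving it out gave 2.38, still called. In the other crosses it was at 0.638, 1.23 and 1.21 CPM against 0.338, 0.441 and 0.270 CPM in the Vhl-Hif1 cross (1.55 ± 0.56). Its triple cross values were 0.961, 1.10 and 1.18 CPM against 0.263, 0.0832 and 0.420 CPM (2.04 ± 0.57, and 1.66 without triple control 2). Neither of these was called, although knockout and control libraries did not overlap in either. Gm49368, a coding model that joins exons of Itgam to sequence just before Itgax, was counted in 12 of 18 libraries. It had 33, 32 and 23 counts in the libraries labelled Vhl-Hif2 knockout and 0, 5 and 0 in their controls (3.59 ± 0.99). It passed the filter through those knockout libraries, so it had to differ there and nothing is read from its call, which ended without knockout 1, control 1 or control 3. It had 4, 1 and 5 counts against 6, 1 and 0 in the Vhl-Hif1 cross (0.37 ± 1.16) and 0, 2 and 0 against 7, 0 and 1 in the triple cross (-1.89 ± 1.47, and -2.40 without triple control 2), too few to show a direction. Since most of its exon length is shared with Itgam, a change of Itgam and a change of Gm49368 cannot be told apart from counts per gene.

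The 2 antisense genes that are in the table but not among the 9 had few counts and were below the filter. In the libraries labelled Vhl-Hif2 knockout Gm39091 had 8, 14 and 12 counts against 4, 1 and 2 in the controls. Gm44850 had 15, 20 and 6 counts there against 0, 2 and 1. Both were thus higher in those knockout libraries than in their controls, and neither was tested. In the other 4 groups no library held more than 5 counts of either.

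Cox6a2 encodes the heart and muscle form of a subunit of cytochrome c oxidase, and lies on the opposite strand within Itgad. It was at 1.06, 1.43 and 0.837 CPM in the libraries labelled Vhl-Hif2 knockout against 0.409, 0.309 and 0.372 CPM in their controls (1.61 ± 0.41, called), which is 32, 46 and 28 counts against 8, 8 and 8. The call ended without knockout 2 (1.38) or control 2 (1.5). Cox6a2 in the Vhl-Hif1 cross was at 0.526, 0.596 and 0.508 CPM against 0.253, 0.132 and 0.386 CPM, without overlap and not called (1.05 ± 0.44). Cox6a2 in the triple cross was at 0.240, 0.259 and 0.535 CPM against 0.263, 0.166 and 0.115 CPM, with overlap and not called (0.88 ± 0.47, and 0.82 without triple control 2).

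The 3 members beyond Itgad were not called in any cross. Armc5, which encodes an armadillo-repeat adaptor of a ubiquitin ligase, was at 25.4 ± 6.53 CPM in the Vhl-Hif1 knockout against 24.1 ± 1.78 (SD, n = 3). Its level was 22.9 ± 1.06 against 22.6 ± 0.733 CPM in the Vhl-Hif2 cross (0.02 ± 0.21). The triple cross had it at 22.8, 21.0 and 23.7 CPM against 22.5, 43.4 and 22.9 CPM (-0.39 ± 0.21), and without triple control 2, the highest of all 18 libraries, the log2 fold change was -0.01. 9130023H24Rik, a predicted coding gene head to head with Armc5, was at 2.87 to 6.05 CPM in all libraries. Its log2 fold changes were -0.25 ± 0.22, -0.11 ± 0.22 and 0.02 ± 0.22 in the Vhl-Hif1, Vhl-Hif2 and triple crosses. Without triple control 2 the last of these was -0.14. Tgfb1i1, which encodes the focal adhesion adaptor Hic-5, was at 4 to 14 counts in a library, with log2 fold changes of -0.19 ± 0.44, -0.02 ± 0.49 and 0.75 ± 0.49 in the same order (1.05 in the triple cross without control 2). Its 95% interval in the Vhl-Hif2 cross ran from a fold of 0.503 to 1.92, so a change within that range is not excluded.

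**Figure D2:**
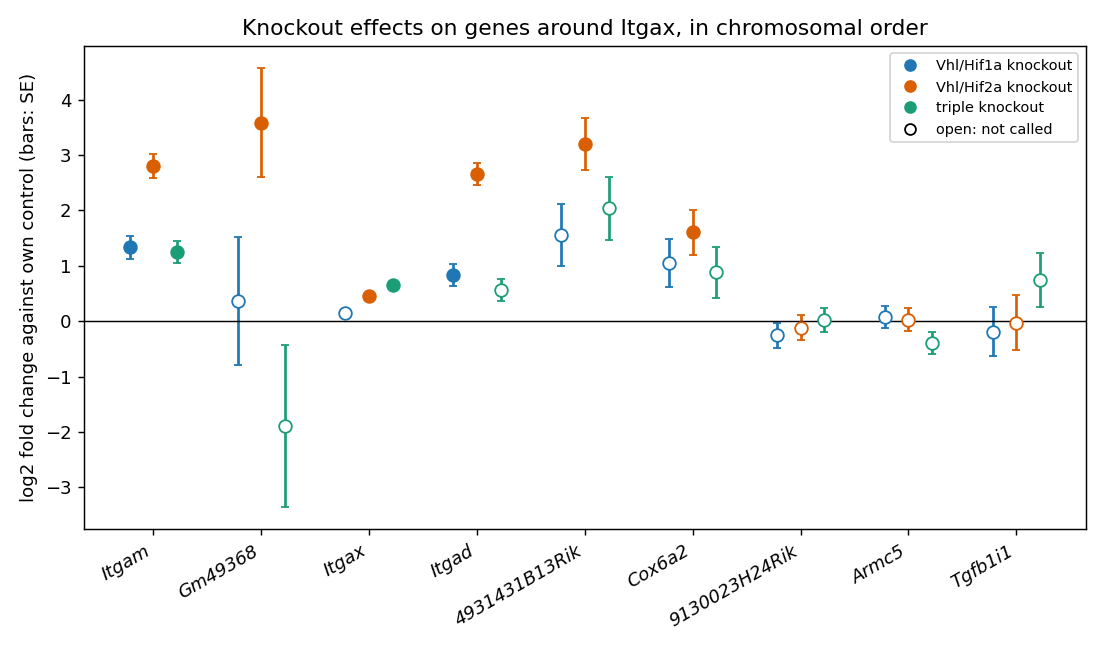
Log2 fold changes of the 9 genes (vertical axis, points, with SE bars) in chromosomal order, for the Vhl-Hif1 (blue), Vhl-Hif2 (orange) and triple (green) knockout against its own control, each 3 libraries against 3. Filled points were called in the fit over all genes. The orange points of Itgam, Gm49368, Itgad and 4931431B13Rik lie between 2.67 and 3.59, and the points of 9130023H24Rik, Armc5 and Tgfb1i1 are open in all 3 crosses.

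The effects of the crosses are set side by side here as a description, since they were compared when the genes were chosen. Itgam rose more in the libraries labelled Vhl-Hif2 knockout than in the Vhl-Hif1 knockout by 1.47 ± 0.29 on the log2 scale, and more than in the triple knockout by 1.55 ± 0.29. For Itgad the same differences were 1.84 ± 0.28 and 2.11 ± 0.28. Itgax rose more in the triple knockout than in the Vhl-Hif1 knockout by 0.51 ± 0.09. These 5 differences were called in the fit over all genes, where 2.44% (Vhl-Hif2 minus Vhl-Hif1), 7.99% (Vhl-Hif2 minus triple) and 2.04% (triple minus Vhl-Hif1) of tested genes were called, and no other member was called in any of the 3. The Itgax effect in the Vhl-Hif2 cross exceeded that in the Vhl-Hif1 cross by 0.30 ± 0.09 and was below that in the triple cross (difference -0.21 ± 0.09), neither of which was called. The first of these 2 differences was called in 1 of 18 alternatives. The Itgax difference between the triple and Vhl-Hif1 crosses lost its call under a replicate block. By value the effect was highest in the triple cross for Itgax and in the Vhl-Hif2 cross for Itgam and Itgad. The Itgax difference between those 2 crosses was not called, so no order of them is read for Itgax. Mean Itgax was 2149 and 2144 CPM in the triple and Vhl-Hif2 knockouts, and 1364 and 1568 CPM in their controls. The 3 differences share libraries with each other and are given side by side only.

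With the 3 crosses averaged, 5 members were called higher in knockouts than in controls, where 10.1% of tested genes were called and 4.94% were called higher: 4931431B13Rik (2.26 ± 0.31), Itgam (1.80 ± 0.12), Itgad (1.35 ± 0.11), Cox6a2 (1.18 ± 0.25) and Itgax (0.42 ± 0.04). The control libraries alone would not have carried Cox6a2 past the filter on low counts, so nothing is read from its averaged call. Itgam was the member whose 9 knockout libraries (12.1 CPM or more) all lay above all 9 control libraries (8.33 CPM or less). That held for 8 of the 12900 tested genes (0.0620%). Itgax, by contrast, reached 1587 CPM in a control and went down to 1521 CPM in a knockout library of another cross.

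In all, 2 genes that are not members were called higher in the triple knockout beside Itgax and Itgam, Plcb4 and Pagr1a, and with Vhl they make up all 5 genes called in that cross. Plcb4, a phospholipase C of G protein signalling on chromosome 2, was at 20.9, 20.6 and 21.8 CPM in the Vhl-Hif1 knockout against 0.464, 0.529 and 1.70 CPM in its control (4.52 ± 0.31). The Vhl-Hif2 knockout held 12.6, 15.1 and 16.3 CPM and its control 0.920, 0.811 and 0.372 CPM (4.38 ± 0.32), and the triple knockout 30.5, 24.8 and 30.8 CPM and its control 0.263, 0.166 and 0.305 CPM (6.83 ± 0.37). Plcb4 was thus low in all 9 controls, highest among them in Vhl-Hif1 control 3, and without that library the effect in its cross was 5.41. Without triple control 2 the effect in the triple cross was 6.64, still called. Pagr1a, a partner of a histone methyltransferase complex, lies on chromosome 7 at 1.112 Mb from Itgax. It was at 21.1, 12.1 and 10.6 CPM in the triple knockout against 2.96, 2.87 and 2.29 CPM (2.43 ± 0.40), and was not called in the other 2 crosses (-0.94 ± 0.39 and -0.15 ± 0.40). Its call ended without any 1 of the 6 libraries of the triple cross.

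The 3 control groups were compared with each other. Their libraries are also the baseline of the knockout effects known when the genes were chosen. The adjusted p-values here are therefore not those of independent tests. Itgad was at 33.3 ± 11.4 CPM in the Vhl-Hif2 control, 16.0 ± 0.723 in the Vhl-Hif1 control and 14.4 ± 2.21 in the triple control (SD, n = 3). The Vhl-Hif2 control exceeded the Vhl-Hif1 control by 1.06 ± 0.20 (edgeR adjusted p = 0.027, where 0.341% of tested genes were called), and the triple control was below the Vhl-Hif2 control (difference -1.21 ± 0.20, edgeR adjusted p = 0.003, 3.42% called). Its 3 Vhl-Hif2 controls were all above the 6 other controls, with control 1 at 20.6 CPM and controls 2 and 3 at 36.6 and 42.8. The first of these calls ended without Vhl-Hif2 control 2 or 3, without any 1 of the Vhl-Hif1 controls, and in a fit to the 9 controls alone. Epithelial markers were also highest in the Vhl-Hif2 control, at a sum of 394 to 555 CPM against 174 to 206 in the Vhl-Hif1 and 314 to 354 in the triple control, and their part in the Itgad difference was not tested. Between the triple and Vhl-Hif1 controls none of the 9 was called by edgeR, where 5.40% of tested genes were; 1, Tgfb1i1, had an unadjusted p under 0.05 (-1.13 ± 0.48, edgeR adjusted p = 0.16), and DESeq2 also called 0. For Itgam the largest difference between control groups was 0.26 ± 0.22, of Vhl-Hif2 over Vhl-Hif1, and the lowest edgeR adjusted p of the 3 comparisons was 0.68. For Itgax the triple control was lower than the Vhl-Hif2 control in mean (difference -0.20 ± 0.06, edgeR adjusted p = 0.093), and likewise for 4931431B13Rik (difference -1.90 ± 0.59, edgeR adjusted p = 0.085). Neither was called by edgeR and both were by DESeq2. The labels do not say whether controls of different crosses were bred together, and what else differed between the crosses was not tested.

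Per kilobase of exon the 9 genes spanned several orders of magnitude. Over all 18 libraries Itgax averaged 356 CPM per kb, rank 92 of 12888 tested genes with a length, Itgad 12, Armc5 6.37, Itgam 2.95, 4931431B13Rik 1.47 and 9130023H24Rik 1.31. Cox6a2 averaged 0.686, Tgfb1i1 0.0492 and Gm49368 0.0460 CPM per kb. Armc5 and Itgad changed places between groups: Itgad was at 3.56 ± 0.160 and Armc5 at 6.25 ± 0.462 CPM per kb in the Vhl-Hif1 control, but 47.0 ± 3.38 and 5.96 ± 0.276 in the Vhl-Hif2 knockout. Among the integrin chains, the common partner Itgb2 was at 651 ± 16.6 CPM per kb in the Vhl-Hif1 control, Itgax at 299 ± 13.6, Itgal at 96.2 ± 4.16, Itgad at 3.56 ± 0.160 and Itgam at 1.05 ± 0.128 (SD, n = 3). That order was the same in all 6 groups, and no 2 chains overlapped within a group. In the Vhl-Hif2 knockout Itgad, at 47.0 ± 3.38, came near to Itgal, at 68.0 ± 5.74 CPM per kb.

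**Figure D3:**
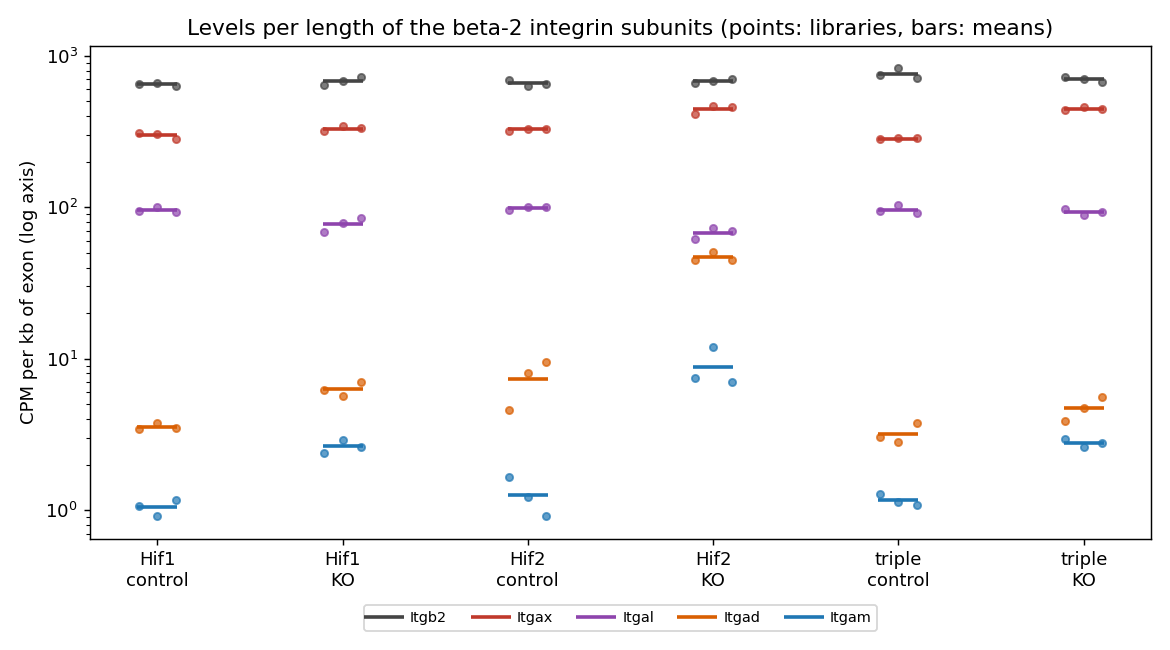
Levels per length (CPM per kb of exon, log axis) of the beta-2 chain Itgb2 and its alpha chains Itgax, Itgal, Itgad and Itgam in the 6 groups. Points are libraries and bars are means of 3. Itgb2 and Itgax run at the top in every group, and Itgad rises from 7.39 in the Vhl-Hif2 control to 47.0 CPM per kb in the Vhl-Hif2 knockout.

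Ratios of counts within a library show how unequally the neighbours changed. Itgam counts per 100 Itgax counts were 0.793 to 0.889 in the Vhl-Hif1 knockout and 0.314 to 0.430 in its control. They were 1.60 to 2.67 against 0.290 to 0.541 in the Vhl-Hif2 cross and 0.593 to 0.710 against 0.399 to 0.478 in the triple cross. The Itgam share was thus higher without overlap in each knockout. Itgad counts per 100 Itgax counts were 9.24 to 10.2 in the Vhl-Hif2 knockout against 1.34 to 2.70, and 1.55 to 1.97 against 1.04 to 1.16 in the Vhl-Hif1 cross. For the triple cross the values were 0.830 to 1.18 against 0.923 to 1.23, which overlap, so there the ratio differed by less than the spread between libraries. Counts of the antisense 4931431B13Rik per 100 of Itgad overlapped between knockout and control in the Vhl-Hif1 (2.33 to 4.86 against 1.84 to 2.74) and Vhl-Hif2 crosses (1.88 to 7.34 against 1.99 to 4.55). They did not in the triple cross (4.68 to 5.47 against 0.658 to 2.53).

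Genes farther along the chromosome were looked at in the same fit. Of 73 genes in the table that lie from 100 kb to 1 Mb from Itgax, 51 were tested. For the Vhl-Hif2 cross 4 were called higher and 3 lower, where 7.68% and 7.01% of all tested genes were. Those higher included Ctf2, a cytokine gene (1.41 ± 0.46), Zfp629 (0.64 ± 0.21) and Spn, which encodes CD43 (0.29 ± 0.06). Those lower were Rgs10, a regulator of G protein signalling (-1.31 ± 0.14), Itgal (-0.54 ± 0.09) and the selenophosphate synthetase Sephs2 (-0.41 ± 0.08). The Ctf2 call ended without any 1 of the 6 libraries of the cross, and the Zfp629 call without any 1 but control 1. Spn and Sephs2 were added to the named genes of this cross after their values were seen. Spn alone in the Vhl-Hif1 cross was called, lower (-0.23 ± 0.06, where 1.42% of all tested genes were called lower), and that call ended without any 1 of the 6 libraries of the cross. The edgeR fit called 0 of the 51 in the triple cross, with 3 at an unadjusted p under 0.05, and DESeq2 called 0. The share of all tested genes at that unadjusted threshold is not given here. Nothing is therefore read from such counts, for these genes or for the lists below. The medians of the 51 were 0.06, 0.04 and -0.11 in the Vhl-Hif1, Vhl-Hif2 and triple crosses, against -0.00, 0.00 and -0.01 for all tested genes. The nearest tested neighbours on either side were Pycard, the inflammasome adaptor, with 0.18 ± 0.09, -0.19 ± 0.10 and -0.16 ± 0.09, and BC017158, with 0.27 ± 0.14, 0.13 ± 0.14 and -0.20 ± 0.14, neither of them called.

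**Figure D4:**
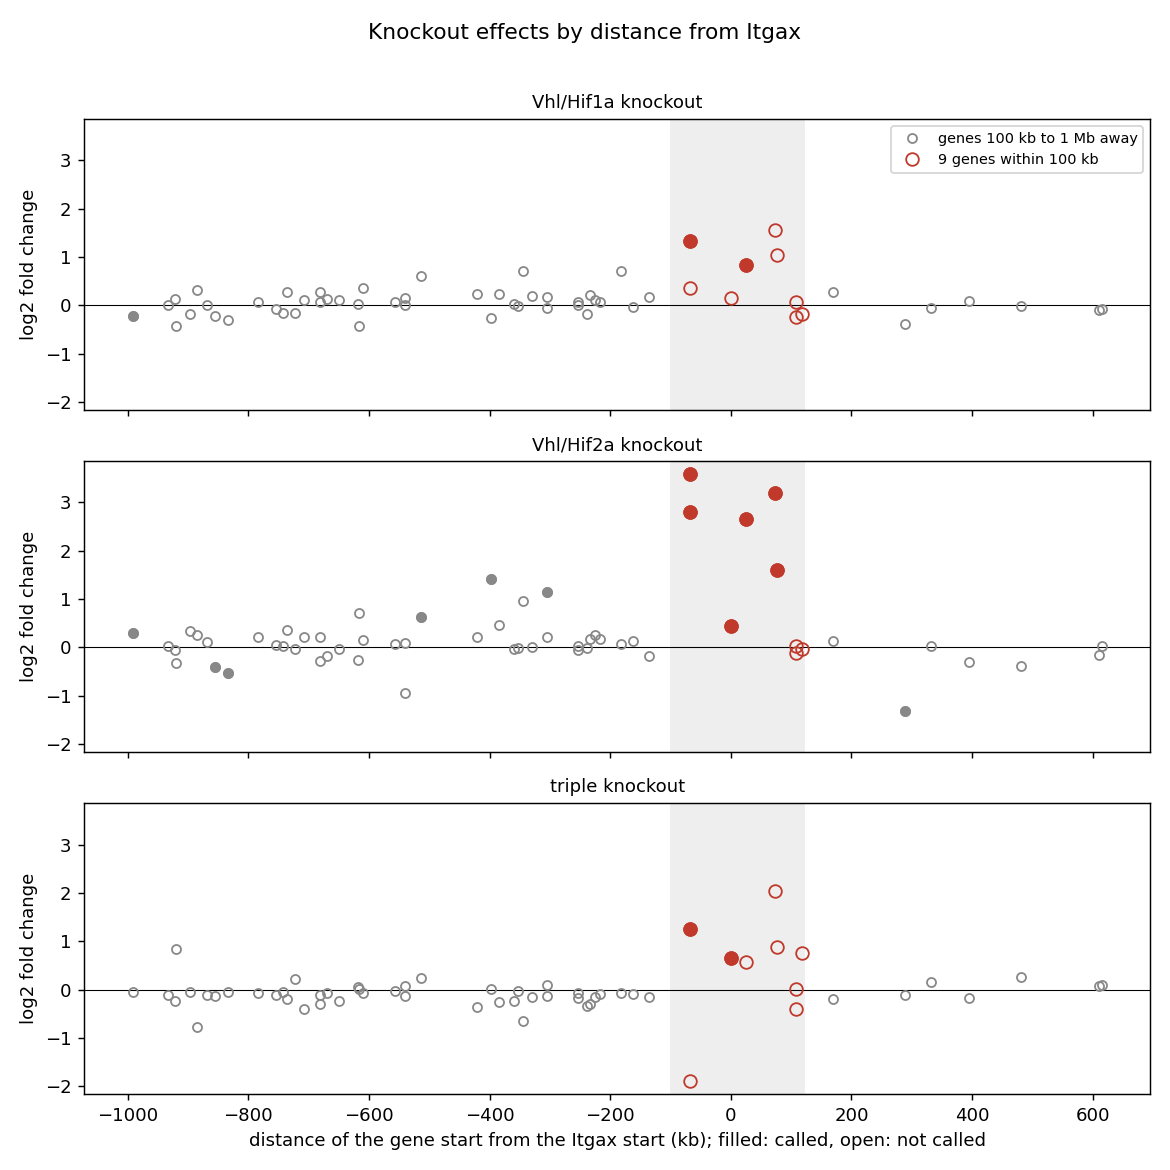
Log2 fold change of each tested gene (vertical axis) against the distance of its start from the start of Itgax in kb (horizontal axis), for the 3 crosses. Red points are the 9 genes within 100 kb, grey points the 51 tested genes from 100 kb to 1 Mb, filled where called, and the shaded band is Itgax with 100 kb on either side. In the middle panel the highest red point is Gm49368 at 3.59. It passed the filter through the knockout libraries of that cross, so nothing is read from its height. Itgam lies at 2.80 there, and the highest grey point is Ctf2 at 1.41.

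Itgb2, the chain that CD11c, CD11b and CD11d need at the surface, was not called in any cross (0.06 ± 0.07, 0.05 ± 0.07 and -0.12 ± 0.07, at 2072, 2085 and 2135 CPM in the knockouts). Itgal, the alpha chain of LFA-1 and the fourth partner of CD18, lies 794.4 kb from Itgax. It was at 405, 479 and 456 CPM in the libraries labelled Vhl-Hif2 knockout against 626, 665 and 656 CPM, a fall that was called (-0.54 ± 0.09), opposite in direction to its 3 relatives. Itgal in the Vhl-Hif1 cross was at 449.8, 520.2 and 559 against 617, 664 and 616 CPM, lower without overlap and not called (-0.31 ± 0.09). The triple cross had Itgal at 609 against 633 CPM (-0.05 ± 0.09). Of 14 tested integrin chains outside the neighbourhood, from a list of 24, 3 fell in the Vhl-Hif2 cross, where 7.01% of all tested genes fell: Itgal, Itga4 (-0.64 ± 0.19), the alpha chain of VLA-4, and Itgae (-1.02 ± 0.31), which encodes CD103. Itga4 lost its call when knockout 1, knockout 3 or control 2 was left out, and Itgae when knockout 1 or 2 or control 1 or 2 was, under a replicate block, and in a fit to the compared libraries alone. None was called by edgeR in the Vhl-Hif1 cross (2 at an unadjusted p under 0.05, 1 called by DESeq2) or in the triple cross (1 and 0). The medians of the 14 were -0.03, -0.22 and -0.09.

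Of 20 tested genes of integrin activation and adaptors, from a list of 23, 2 rose in the Vhl-Hif1 cross, Tln2 and Vcl, where 2.22% of all tested genes rose. Tln2 encodes a talin, which links integrin tails to actin, and rose from 1.99 to 10.9 CPM (2.45 ± 0.29), and Vcl encodes vinculin (0.87 ± 0.16). Tln2 alone rose in the Vhl-Hif2 cross, from 1.57 to 14.1 CPM (3.16 ± 0.30), and 1 of 20 is no larger a share than the 7.68% of all tested genes that rose there. The edgeR fit called 0 in the triple cross, with 3 at an unadjusted p under 0.05 and 0 called by DESeq2, and Tln2 gave -0.36 ± 0.33 there (-0.02 without triple control 2). The medians of the 20 were -0.02, -0.10 and -0.14.

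Of 5 tested ligands of the beta-2 integrins, from a list of 11, Icam1, a counter-receptor on other cells, and C3, the source of the complement fragment iC3b, fell in the Vhl-Hif1 and Vhl-Hif2 crosses, where 1.42% and 7.01% of all tested genes fell. Icam1 gave -0.68 ± 0.17 and -0.65 ± 0.17, and C3 -0.56 ± 0.14 and -1.67 ± 0.14, where C3 went from 421 to 132 CPM in the Vhl-Hif2 cross. Icam1 in the Vhl-Hif1 cross lost its call when knockout 1 or 2 or control 1 or 2 was left out, and C3 when knockout 1 or 2 or any control was. Icam1 also lost its call in the Vhl-Hif2 cross with knockout 1, knockout 3 or control 1 left out. The edgeR fit called 0 of the 5 in the triple cross (1 at an unadjusted p under 0.05, 0 called by DESeq2). The medians of the 5 were -0.56, -0.11 and -0.30.

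Of 22 tested transcription factors and receptors linked to the expression of Itgax and Itgam, from a list of 24, 1 fell in the Vhl-Hif1 cross, where 1.42% of all tested genes fell: Tgfbr1 (-0.70 ± 0.16), a receptor chain for TGF-beta, which lost its call when knockout 2 or 3 or control 2 or 3 was left out. Of these 22, 2 rose in the Vhl-Hif2 cross, Klf2 (1.23 ± 0.34) and Bhlhe40 (0.66 ± 0.09), and 2 fell there, Cbfb, the partner of the RUNX factors (-0.55 ± 0.11), and Irf8 (-0.37 ± 0.11). These counts are near the 7.68% and 7.01% of all tested genes that rose and fell there, and are no result about the list. The Klf2 call ended without knockout 1 or any 1 of the controls, and the Irf8 call without any 1 of the 6 libraries. The edgeR fit called 0 in the triple cross (9 at an unadjusted p under 0.05, 0 called by DESeq2). Those 9 include triple control 2 in the fit and have no share of all tested genes beside them, so they are no result about the list. The medians of the 22 were 0.03, -0.09 and -0.19.

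Markers of cells that carry these integrins were read in the same libraries. The 11 alveolar macrophage markers summed to 22553 to 40071 CPM. Their sum was 33811 to 36803 CPM in the Vhl-Hif2 knockout against 25384 to 29267 in its control, 33111 to 40071 against 28513 to 29738 in the Vhl-Hif1 cross and 32775 to 33340.2 against 22553 to 30366 in the triple cross, higher in each knockout without overlap. Most of that sum was Chil3, at 25041 against 18621 CPM in the Vhl-Hif2 cross, 28383 against 20756 in the Vhl-Hif1 cross and 23823 against 19412 in the triple cross. Of the 11, 1 rose and 1 fell in the Vhl-Hif1 cross, 4 rose and 1 fell in the Vhl-Hif2 cross, and 0 were called in the triple cross, where 2.22% and 1.42%, 7.68% and 7.01%, and 0.0388% in either direction of all tested genes were. The 9 neutrophil markers, of cells rich in CD11b, summed to 77.4 to 88.5 CPM in the Vhl-Hif1 knockout against 156 to 166, to 127 to 158 against 123 to 204 in the Vhl-Hif2 cross and to 151 to 174 against 137 to 147 in the triple cross. The defining neutrophil gene Ly6g was at 0 in all 18 libraries. Of the 7 tested, S100a8 rose (1.16 ± 0.19) and Csf3r, Cxcr2 and Mmp8 fell in the Vhl-Hif1 cross, and S100a8 rose (1.63 ± 0.19) and Csf3r and Cxcr2 fell in the Vhl-Hif2 cross. The 9 monocyte and interstitial macrophage markers summed to 24.9 to 38.3 CPM against 19.1 to 24.3 in the Vhl-Hif1 cross, 23.5 to 27.1 against 12.5 to 23.9 in the Vhl-Hif2 cross and 14.5 to 18.4 against 16.3 to 21.7 in the triple cross. Of the 8 tested, 1 rose in the Vhl-Hif1 cross (F13a1), and 1 rose (Ccr2) and 1 fell (C1qb) in the Vhl-Hif2 cross. The 8 dendritic cell markers, of cells rich in CD11c, summed to 34.9 to 36.9 CPM in the Vhl-Hif2 knockout against 43.4 to 93.0 in its control, and 4 of the 8, Flt3, Zbtb46, Ccr7 and Fscn1, fell there. The dendritic sum in the Vhl-Hif1 cross was 28.5 to 44.0 against 42.2 to 55.0 CPM, and in the triple cross 38.4 to 43.3 against 36.7 to 68.1. T and NK cell, B cell and eosinophil markers summed to under 1 CPM in every library, and erythroid markers to at most 3.43. The 6 epithelial markers summed to 156 to 196 CPM against 174 to 206 in the Vhl-Hif1 cross, 504 to 540.3 against 394 to 555 in the Vhl-Hif2 cross and 269 to 293 against 314 to 354 in the triple cross. In bulk libraries fewer cells of a type and less RNA per cell cannot be told apart, and the part of these markers in the integrin results was not tested.

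As a description of likeness over the 18 libraries, with no test, the log2 CPM of each member was correlated with all tested genes with a mean of at least 1 CPM, those with Gm or Rik names left out. Itgax was most like its neighbour Itgam (Pearson r = 0.81), then Plcb4 (0.78), Tceal9 (0.77), Tpt1 (0.77) and Rpl36a (0.77). Itgam was most like the potassium channel Kcnj15 (0.92), the collagen chain Col6a3 (0.91), AC160336.1 (0.91), the phosphofructokinase Pfkl (0.88) and the glycogen branching enzyme Gbe1 (0.88). Itgad was most like Nrn1 (0.97), Zfp395 (0.95), Prelid2 (0.94), Pfkfb3 (0.94), which sets the level of a glycolysis activator, and Pdk1 (0.94), a kinase of pyruvate dehydrogenase. The antisense 4931431B13Rik was most like Itgad (0.91), followed by Abhd18 (0.91), Rps3a1 (0.90), Itgam (0.89) and Zfp292 (0.89). Armc5 was most like Ppp1r9b (0.94), Llgl1 (0.94), Lemd2 (0.93), Bag6 (0.93) and Ncdn (0.93), and its r with Itgax was -0.27. The closest to 9130023H24Rik was Psma4, at 0.70. The 18 points share 6 groups, and triple control 2 is extreme for Armc5, so these values describe the libraries only.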

How the data were processed

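RNA-seq libraries of CD11c bead-selected mouse alveolar macrophages were analysed, 18 in 6 groups of 3. The deposited table holds expected counts per gene (32789 genes; 89.3% of values are whole), with no normalisation by the authors, and the unit was read from its values. The submitters' processing notes name FastQC, cutadapt, STAR and GRCm38; versions, counting tool and strand setting are not stated in the sources used. No column belonged to another sample set. Values were rounded, genes were filtered with filterByExpr on the 6 groups (12900 kept, holding 99.97% of counts), scaled by TMM, and fitted with edgeR 4.0.16 (glmQLFit and glmQLFTest, R 4.3.3, limma 3.58.1) with 1 mean per group over all 18 libraries. Adjusted p-values are Benjamini-Hochberg over all tested genes, with a threshold of 0.05. Standard errors are the log2 fold change divided by the root of F, and 95% intervals are 1.96 standard errors either way. CPM use effective library sizes, and exon lengths come from GENCODE M21, matched for 12888 tested genes. Counts were simulated for 12900 genes in the Vhl-Hif2 comparison, with changes placed only in genes with a mean of at least 1 CPM. Of changes of 1 and 2 (log2), 87% and 98% were recovered, with 12 false calls among 197. Cox6a2, Tgfb1i1 and Gm49368 average under 1 CPM, so these rates do not cover them. Samples were grouped by their labels. Alternatives were DESeq2 1.42.0, RLE and upper quartile factors, no filter, unrounded counts, a replicate block, the compared libraries alone, and leaving out each library.

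The 9 genes, the gene lists and the markers were chosen with earlier results of these data known. Named genes were the 9, Vhl, Hif1a, Epas1, Itgb2 and Itgal, up to 4 called genes per list and comparison with a mean of at least 1 CPM, up to 5 called genes from 100 kb to 1 Mb away per comparison, and for each member with a mean of at least 1 CPM the 5 most similar genes, those with Gm or Rik names aside. Plcb4, Pagr1a and single cell markers were named after their values were seen. Some genes that the rule names are not reported here.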

Additional observations from a re-analysis of the deposited data

Results flagged for a closer look

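The genes were chosen with their knockout effects compared between crosses, and the comparisons share libraries, so the values here are a description and support nothing. For 3 of the 9 genes a difference between crosses was past the threshold in the fit over all genes. The Itgam effect was larger in the libraries labelled Vhl-Hif2 knockout than in the Vhl-Hif1 knockout by 1.47 on the log2 scale, and larger than in the triple knockout by 1.55. The Itgad effect was larger in the libraries labelled Vhl-Hif2 knockout than in the Vhl-Hif1 knockout by 1.84, and larger than in the triple knockout by 2.11. The Itgax effect was larger in the triple than in the Vhl-Hif1 knockout by 0.51. This Itgax difference lost its call under a replicate block.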

How the results depend on the processing

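Over the alternatives tried, 290 counts of called genes stayed within 1.5 times the value reported and 58 did not, and of the values of the 9 genes, Itgal, Plcb4 and Tln2 494 kept their direction and side of the threshold, 20 lost a call, 2 gained one and 0 changed direction while called. Among the other named genes of the lists, of the flank and Pagr1a, 76 values lost a call, most of them with a library left out, and 4 gained one. Of the 9 genes, 2 called in the triple cross became 1 under a replicate block, 0 in a fit to the compared libraries alone, and 1 with any 1 of the 6 libraries left out. The count of 2 in the Vhl-Hif1 cross became 1 to 2 with a library left out. The Itgax difference between the triple and Vhl-Hif1 effects, 1 called member, became 0 under the replicate block. Between controls, 1 called member for Vhl-Hif2 against Vhl-Hif1 became 0 in the compared libraries alone and 0 to 1 with a library left out, and 1 for triple against Vhl-Hif2 became 3 by DESeq2. Of the genes from 100 kb to 1 Mb, 1 in the Vhl-Hif1 cross became 2 by DESeq2, 0 with RLE factors, 0 with upper quartile factors, 0 with no filter, 0 under the replicate block, 0 in the compared libraries alone and 0 to 1 with a library left out, and 7 in the Vhl-Hif2 cross became 4 to 6 with a library left out. Of the other integrin chains, 0 in the Vhl-Hif1 cross became 1 by DESeq2 and 0 to 1 with a library left out, and 3 in the Vhl-Hif2 cross became 1 to 3. Of the adaptors, 1 in the Vhl-Hif2 cross became 3 by DESeq2 and 3 in the compared libraries alone. Of the ligands, 2 in the Vhl-Hif1 cross became 0 under the replicate block and 0 to 2 with a library left out, and 2 in the Vhl-Hif2 cross became 1 to 3. Of the transcription factors and receptors, 1 in the Vhl-Hif1 cross became 2 in the compared libraries alone, 0 under the replicate block and 0 to 1 with a library left out, and 4 in the Vhl-Hif2 cross became 2 to 3. Leaving out libraries gives fewer samples, and the cause of the other changes was not tested.

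Over all tested genes, 5 called in the triple cross became 11 by DESeq2, 2 in the compared libraries alone and 3 to 4 with a library left out. The 469 of the Vhl-Hif1 cross and 1895 of the Vhl-Hif2 cross fell to 275 and 1249 at the lowest with a library left out. The 1302 with all crosses averaged became 2053 without triple control 2. The 315 differences between Vhl-Hif2 and Vhl-Hif1 effects became 492 by DESeq2 and 194 under the block, the 263 between triple and Vhl-Hif1 effects 479 and 150, and the 1031 between Vhl-Hif2 and triple effects 675 to 1390 with a library left out. Of the control comparisons, 44, 697 and 441 calls became 88, 1293 and 983 by DESeq2 and 17, 84 and 90 in the compared libraries alone. Same-numbered libraries of knockout and control deviated together, with a correlation over 0.1, in 2 of 9 pairs (r from -0.29 to 0.23), so the numbers were not taken to pair them. Under the replicate block the calls of Itgam in the triple cross and of Cox6a2 in the Vhl-Hif2 cross ended, while Itgam in the Vhl-Hif1 and Vhl-Hif2 crosses and Itgax, Itgad and 4931431B13Rik in the Vhl-Hif2 cross were called in all 13 alternatives. Low depth limits Gm49368, Tgfb1i1 and Cox6a2.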

Other observations

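Beside Itgam, 13 of the 12900 tested genes had all 9 knockout libraries on one side of all 9 controls, and they are named here after their values were seen. The 7 that were higher were Plcb4, the potassium channel Kcnj15 (3.01 ± 0.17 on the log2 scale, averaged over the 3 crosses), S100a8, a calcium-binding protein of myeloid cells (1.04 ± 0.11), Gm28875 (0.50 ± 0.09), the serine protease inhibitor Serpinb6a (0.45 ± 0.05), the caveolin Cav2 (0.44 ± 0.10) and Chil3, a chitinase-like protein abundant in alveolar macrophages (0.39 ± 0.07). Kcnj15 was at 26.8 ± 4.77, 70.2 ± 13.8 and 8.0 ± 2.25 CPM in the Vhl-Hif1, Vhl-Hif2 and triple knockouts against 2.72 ± 1.69, 2.71 ± 0.525 and 3.78 ± 0.343 in their controls (SD, n = 3). The 6 that were lower included Vhl (-2.72 ± 0.09), Mfsd6 (-1.64 ± 0.09), Wfdc10 (-1.12 ± 0.12), the synapsin Syn1 (-0.53 ± 0.06) and Pald1 (-0.33 ± 0.07). Mfsd6 was at 1.90 ± 0.180, 0.791 ± 0.0662 and 2.98 ± 0.363 CPM in the Vhl-Hif1, Vhl-Hif2 and triple knockouts against 4.74 ± 0.617, 6.66 ± 0.520 and 4.27 ± 0.301 in their controls. None of the 13 lies on chromosome 7.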
